A study of Macaca radiata with 4 samples.

Results

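The insulin-like growth factor (IGF) ligands, receptors and binding proteins were followed in the corpus luteum of the bonnet monkey (Macaca radiata), the gland that forms from the ovulated follicle and secretes progesterone. Members were all probe sets whose only gene symbol in the platform annotation was IGF1, IGF2, IGF1R, IGF2R, IGFBP2, IGFBP3, IGFBP4, IGFBP5, IGFBP6 or IGFBP7. This gave 10 of 14132 genes that had a probe set with 1 symbol, on 21 of the 52766 probe sets that were not controls. All 21 lay above the filter on dim probe sets (a mean log2 over the 4 arrays above the 40th percentile, a signal of 90.7), as did 31659 probe sets in all, and every statistical result below refers to those 31659. Each group held 2 arrays. The rhLH group (replicates 3 and 4) came from female monkeys given 150 µg/kg of CET on day 7 of the luteal phase and, 24 h later, 20 IU/kg of rhLH intravenously. The PBS group (replicates 1 and 2) received the same CET followed by PBS. Corpora lutea were collected 8 h after the injection. CET blocked the secretion of the animals' own LH in both groups, per the labels, so rhLH arrays represent LH given back and PBS arrays represent continued withdrawal. The age of the animals was not given in the sources used here.

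IGF1 and IGF2 are secreted peptides that signal through IGF1R, a receptor tyrosine kinase linked by adaptor proteins to PI3-kinase, AKT and mTOR. IGF2R binds IGF2 and carries it to lysosomes for breakdown, without kinase signalling of its own. The IGF-binding proteins hold the ligands in tissue fluid and blood, limit or prolong their access to the receptor and are in turn cut by proteases such as PAPPA. In the ovary, IGFs are known to act with gonadotropins on steroid production by granulosa and luteal cells.

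The tissue identity and the arrays were examined first. STAR, which delivers cholesterol to the mitochondrion, and HSD3B2, which makes progesterone, had signals above the 99th percentile of their array on all 4 arrays. PBS replicate 1 stood apart. Its Pearson correlation across kept probe sets was 0.752 to 0.780 with the other arrays, which correlated at 0.940 to 0.947 with each other. The median signal on PBS replicate 1 was 186.4, against 135.6 to 139.5 on the other arrays. The 99th percentile of signals was 8886 there, against 12091 to 12459 on the others. The ratio of the 3′ to the 5′ control probe set for actin, a measure of RNA integrity and labelling, was 1.59 and 1.54 on the rhLH arrays, against 11.2 on PBS replicate 1 and 1.49 on PBS replicate 2. The same ratio for GAPDH was 2.28 and 1.62 on the rhLH arrays, against 3.23 on PBS replicate 1 and 1.88 on PBS replicate 2. The cre controls, which are added to the hybridization mix, had signals of 29426 to 36161 on the rhLH arrays, against 18657 and 20813 on PBS replicate 1 and 38234 and 32484 on PBS replicate 2. The part of these differences in the results below was not tested, and differences are given against each PBS array on its own beside the pooled value.

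Across the IGF family, no probe set passed the test between rhLH and PBS. For 15 of the 21 members the gap between the PBS arrays was larger than the difference between the groups (71.4%), as it was for 74.5% of all kept probe sets. Differences are of log2(signal + 16), rhLH mean minus PBS mean, and their errors and p-values come from limma. Of the 21 probe sets, 0 passed at an adjusted p of 0.05, where 0% of all kept probe sets passed, and the adjusted p of members was 0.919 to 0.990. At an unadjusted p of 0.05 it was also 0 of 21, against 2.02% of all kept probe sets, and the smallest member value was 0.0993. A positive difference was found for 14 members and a negative one for 7, with a median of 0.22, against −0.04 over all kept probe sets. The family median took opposite signs against the PBS arrays, being 0.64 relative to PBS replicate 1 and −0.17 relative to PBS replicate 2. Both rhLH arrays lay above both PBS arrays for 5 members (14.4% of all kept probe sets) and below both for 3 (17.7%). Together these 8 of 21 stand beside 32.2% of all kept probe sets, close to the background. No member differed by at least 2-fold between every rhLH array and every PBS array, which 0.834% of all kept probe sets did.

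PBS replicate 1 was the lowest or the highest of the 4 arrays for 17 of 21 members (81.0%), close to the 79.7% of all kept probe sets. It was the lowest for 14 members (66.7%, against 35.7% of all) and the highest for 3 (14.3%, against 44.0% of all). PBS replicate 2 lay above PBS replicate 1 for 17 members (81.0%, against 45.9% of all). By mean level the members lay between percentiles 61.9 and 100 of all probe sets without controls. The kept probe sets set beside them were not matched in brightness, and the part of brightness in these shares was not tested. The rhLH arrays lay a median of 0.15 apart on the log2 scale for the members and the PBS arrays 0.93, where the medians over all kept probe sets were 0.29 and 0.74. The PBS gap was the larger for 20 of 21 members and for 74.6% of all kept probe sets. From PBS replicate 2 alone, the rhLH mean differed by more than 1 on the log2 scale for 0 of 21 members and for 6.65% of all kept probe sets. From PBS replicate 1 alone it did so for 7 of 21 (33.3%), against 35.4% of all.

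**Figure D1:**
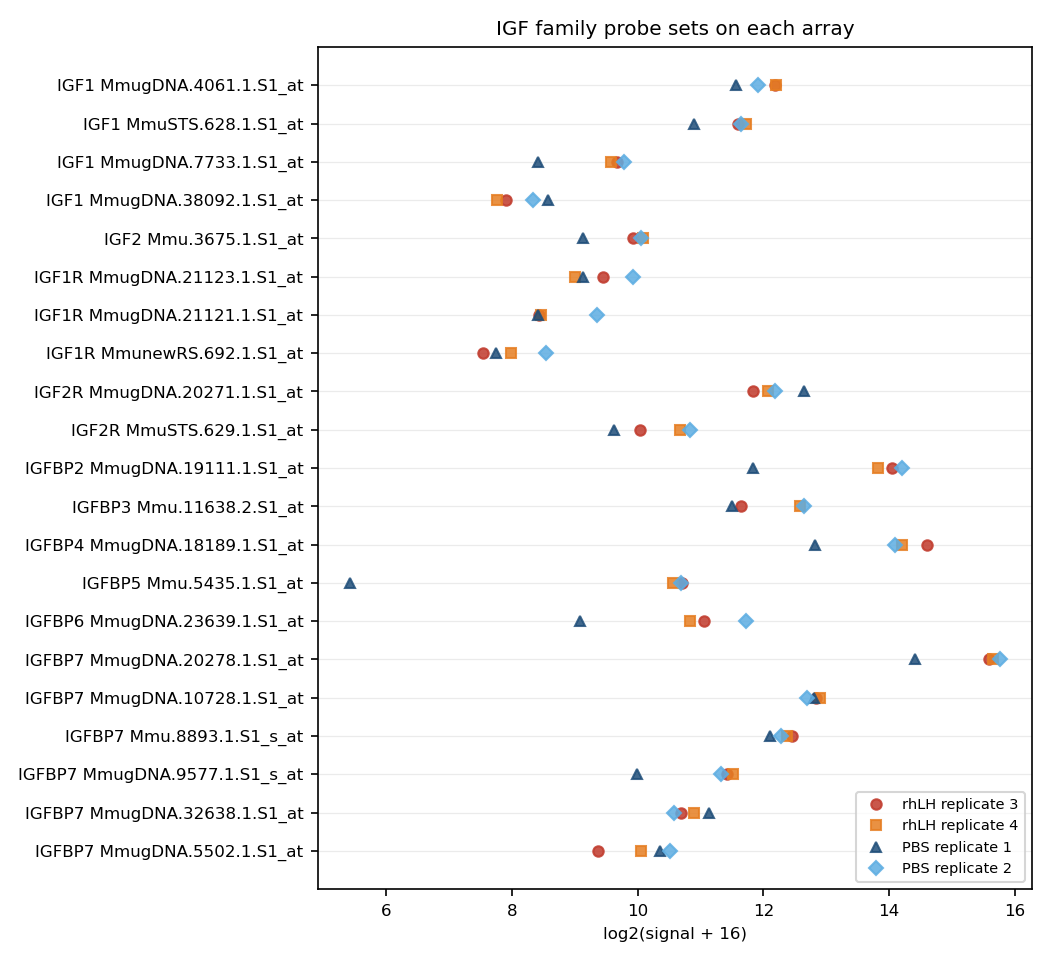
Signals of the 21 IGF family probe sets as log2(signal + 16) on the horizontal axis, 1 row per probe set and 1 symbol per array, with no averaging. PBS replicate 1 (dark triangles) is the lowest array in 14 of the 21 rows, and the rhLH arrays lie a median of 0.15 apart; levels of different rows are not comparable, since probe sets differ in brightness.

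Among the ligands, IGF1 had 4 probe sets and they did not move together. The brightest, MmugDNA.4061.1.S1_at, had signals of 4670 and 4697 on the rhLH arrays, against 2993 and 3869 on the PBS arrays. Both rhLH arrays lay above both PBS arrays, with log2 differences of 0.64 (PBS replicate 1) and 0.27 (PBS replicate 2). The pooled difference was 0.46 (SE 0.32, 95% interval −0.32 to 1.24, limma adjusted p = 0.919), with means of 4683 ± 19.2 with rhLH and 3431 ± 619 with PBS (SD, n = 2 each).

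MmuSTS.628.1.S1_at read IGF1 at 3067 and 3362 with rhLH, against 1900 on PBS replicate 1 and 3165 on PBS replicate 2. Only PBS replicate 1 lay clearly lower, and the log2 difference was 0.75 from it but 0.021 from PBS replicate 2. MmugDNA.7733.1.S1_at read 804 and 742 with rhLH, against 325 and 871 with PBS. Here too PBS replicate 1 was the lowest array, while PBS replicate 2 was the highest, with differences of 1.21 and −0.17 on the log2 scale against PBS replicates 1 and 2. The dimmest IGF1 probe set, MmugDNA.38092.1.S1_at, went the other way: 222 and 203 with rhLH, against 363 and 305 with PBS. Both of its rhLH arrays lay below both PBS arrays, with a pooled difference of −0.61 (SE 0.44, 95% interval −1.69 to 0.47, limma adjusted p = 0.919). The direction for IGF1 therefore depended on the probe set, and the place of each probe set on the transcripts was not examined here.

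IGF2, the other ligand, had 1 probe set, with signals of 960 and 1064 on the rhLH arrays, against 544 on PBS replicate 1 and 1052 on PBS replicate 2. PBS replicate 2 fell between the rhLH arrays, and PBS replicate 1 alone lay below. Taken singly, PBS replicates 1 and 2 gave log2 differences of 0.87 and −0.057 (pooled 0.41, SE 0.42, 95% interval −0.64 to 1.45, limma adjusted p = 0.919).

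The 5 receptor probe sets all had lower signals on both rhLH arrays than on PBS replicate 2, and 4 of the 5 had an rhLH mean above PBS replicate 1. Lower on both rhLH arrays than on PBS replicate 2 were also 34.9% of all kept probe sets. The brightest of 3 for IGF1R, the signalling receptor, read 682 and 497 with rhLH, against 542 and 961 with PBS. The second, MmugDNA.21121.1.S1_at, read 329 and 337 with rhLH, against 326 and 640 with PBS. The third, MmunewRS.692.1.S1_at, read 171 and 237 with rhLH, against 197 and 359 with PBS. In all 3, PBS replicate 2 was the highest array and PBS replicate 1 lay beside the rhLH arrays, so that these probe sets of IGF1R, unlike those of IGF1, ordered the arrays alike at the top. Their pooled differences were −0.30, −0.44 and −0.38 (SE 0.43, 0.48 and 0.53; limma adjusted p = 0.919 for each). These were made up of 0.10, 0.032 and 0.027 against PBS replicate 1 and of −0.71, −0.91 and −0.79 against PBS replicate 2.

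IGF2R, the receptor that clears IGF2, had 2 probe sets that disagreed. MmugDNA.20271.1.S1_at read 3612 and 4312 with rhLH, against 6428 and 4651 with PBS. Both rhLH arrays lay below both PBS arrays, with log2 differences of −0.70 and −0.24 from PBS replicates 1 and 2 (pooled −0.47, SE 0.34, 95% interval −1.30 to 0.36, limma adjusted p = 0.919). MmuSTS.629.1.S1_at read 1035 and 1627 with rhLH, against 778 and 1823 with PBS, so that the PBS arrays enclosed the rhLH arrays. Its pooled difference of 0.12 (SE 0.51) combined 0.73 (PBS replicate 1) and −0.49 (PBS replicate 2).

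**Figure D2:**
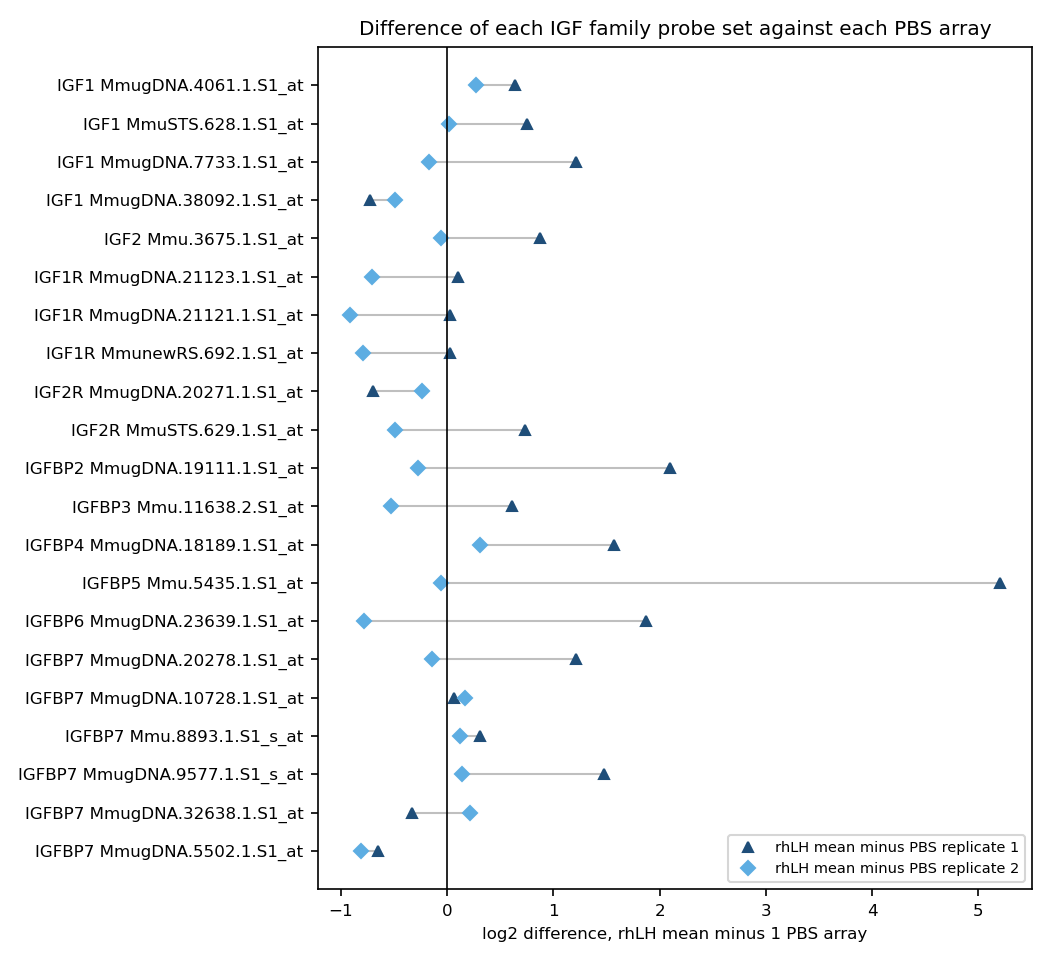
Difference of the rhLH mean from PBS replicate 1 (dark triangles) and from PBS replicate 2 (light diamonds) for each IGF family probe set, on the log2(signal + 16) scale, with a grey line joining both values of a probe set. For 12 of the 21 probe sets the values lie on opposite sides of 0, and IGFBP5 shows the widest span, from −0.054 to 5.20.

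Of the binding proteins with 1 probe set, IGFBP4 was the only one whose rhLH arrays both lay above both PBS arrays. IGFBP4, which in most settings inhibits IGF action and is cleaved by PAPPA, read 24852 and 18901 with rhLH, against 7288 and 17437 with PBS. Its means were 21877 ± 4208 with rhLH and 12362 ± 7176 with PBS (SD, n = 2 each). On the log2 scale the difference was 0.94 (SE 0.51, 95% interval −0.32 to 2.20, limma adjusted p = 0.919). From PBS replicates 1 and 2 taken singly it differed by 1.57 and by 0.31 on the log2 scale, and the value from PBS replicate 2 was smaller than the gap of 0.39 between the rhLH arrays.

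IGFBP5, a binding protein that attaches to the extracellular matrix, had the largest pooled difference of the family, and it rested on 1 array. Its signals were 1660 and 1496 with rhLH, against 27.2 on PBS replicate 1 and 1636 on PBS replicate 2. PBS replicate 2 lay between the rhLH arrays, while PBS replicate 1 lay below the filter level of 90.7. The pooled log2 difference of 2.57 (SE 1.57, 95% interval −1.29 to 6.44, limma adjusted p = 0.919) combined 5.20 from PBS replicate 1 with −0.054 from PBS replicate 2. With PBS replicate 1 as the sole control the limma adjusted p was 0.000999, the lowest of values reaching 1 across the alternatives. With 1 array this dim, the size of both the pooled value and that from PBS replicate 1 depends on the pseudocount, and the pooled value was 2.06 with 64 and 2.88 with 1 in place of 16.

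IGFBP2, an abundant binding protein of serum, read 16941 and 14549 with rhLH, against 3643 and 18926 with PBS. PBS replicate 2 was the highest array and PBS replicate 1 the lowest, so that the pooled difference of 0.92 (SE 0.77, 95% interval −0.97 to 2.80) combined 2.10 and −0.27. IGFBP6, which prefers IGF2 over IGF1 as a ligand, read 2108 and 1818 with rhLH, against 525 and 3377 with PBS. The rhLH arrays again lay inside the span of the PBS arrays, 1.87 above PBS replicate 1 and, at −0.78, below PBS replicate 2 on the log2 scale (pooled 0.54, SE 0.83). IGFBP3, the main IGF carrier of blood, read 3168 and 6165 with rhLH, against 2886 and 6410 with PBS. Each group held 1 high and 1 low array, and the pooled difference was 0.039 (SE 0.53, 95% interval −1.26 to 1.34, limma adjusted p = 0.990), or 0.61 and −0.53 against PBS replicates 1 and 2. It turned to −0.051 under quantile normalization. IGFBP3 was the only one of these 5 binding proteins whose rhLH arrays lay nearly as far apart (0.96 on the log2 scale) as its PBS arrays (1.15).

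IGFBP7, a relative of the other binding proteins with low affinity for IGFs that is secreted by vascular and other cells, had 6 probe sets, 4 with a positive and 2 with a negative difference. The brightest, MmugDNA.20278.1.S1_at, read 49691 and 51426 with rhLH, against 21854 and 55540 with PBS, or 1.21 and −0.14 on the log2 scale against PBS replicates 1 and 2. MmugDNA.10728.1.S1_at read 7305 and 7609 with rhLH, against 7147 and 6642 with PBS. On this probe set all 4 arrays lay close together, PBS replicate 1 included, and the difference was 0.11 (SE 0.31, 95% interval −0.65 to 0.88; 0.061 and 0.17 against PBS replicates 1 and 2), which turned to −0.049 under quantile normalization.

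Both probe sets with the suffix _s_at, which marks probes that can match more than 1 transcript, had positive differences. The brighter of them read 5580 and 5323 with rhLH, against 4395 and 5002 with PBS, a difference of 0.22 (SE 0.31), or 0.31 and 0.12 against PBS replicates 1 and 2. The dimmer, MmugDNA.9577.1.S1_s_at, read 2744 and 2927 with rhLH, against 1003 and 2563 with PBS, a difference of 0.81 (SE 0.49), or 1.48 and 0.14 against PBS replicates 1 and 2. Both, together with MmugDNA.10728.1.S1_at, had both rhLH arrays above both PBS arrays. MmugDNA.32638.1.S1_at, at 1639 and 1895 with rhLH, against 2227 and 1512 with PBS, and MmugDNA.5502.1.S1_at, at 645 and 1044 with rhLH, against 1299 and 1455 with PBS, had negative pooled differences. On the first it was −0.058, or −0.33 and 0.22 against PBS replicates 1 and 2. On the second both rhLH arrays lay below both PBS arrays (−0.65 and −0.81 against PBS replicates 1 and 2, pooled log2 −0.73, SE 0.37, 95% interval −1.65 to 0.19, limma adjusted p = 0.919), and its unadjusted p of 0.0993 was the smallest of the family.

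**Figure D3:**
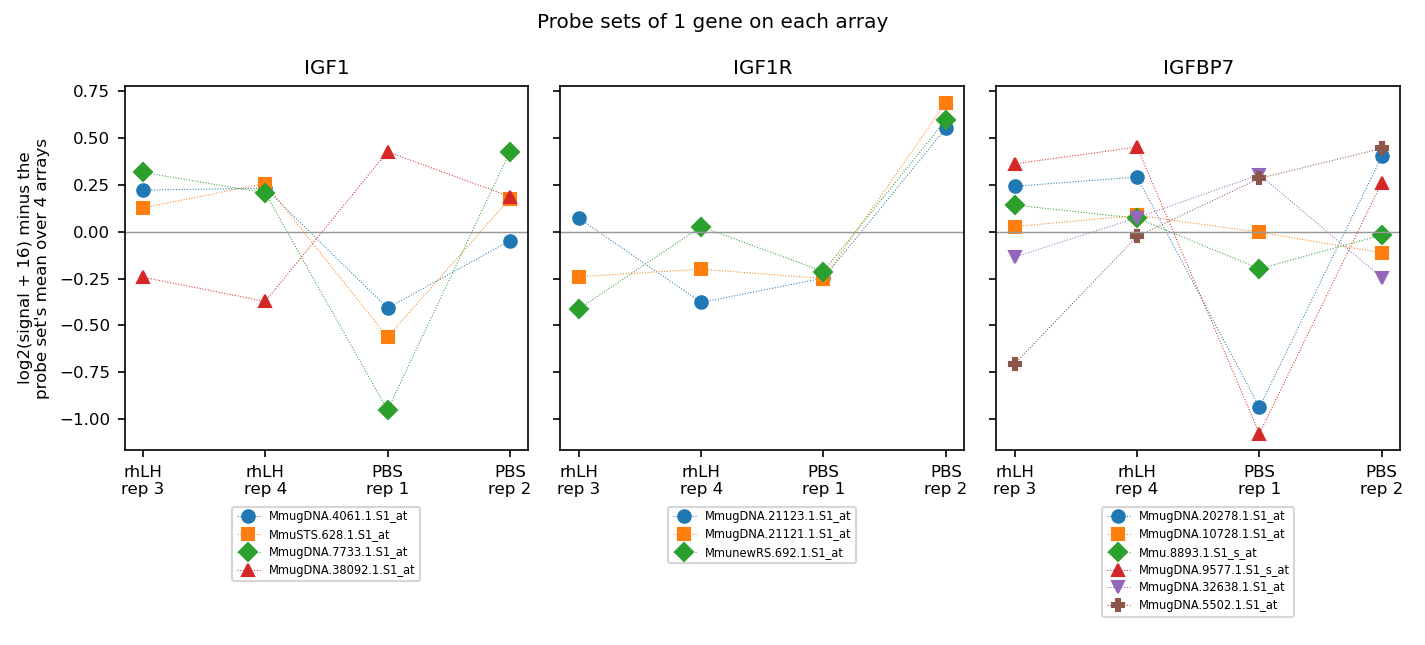
Each array's log2(signal + 16) minus the mean of that probe set over the 4 arrays, for the genes with 3 or more probe sets (IGF1 left, IGF1R middle, IGFBP7 right); dotted lines only join the points of 1 probe set. The IGF1R probe sets share PBS replicate 2 as their highest array, whereas on PBS replicate 1 the IGF1 and IGFBP7 probe sets spread to both sides of 0.

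Against PBS replicate 2 alone, both rhLH arrays were higher for 6 members (33.9% of all kept probe sets) and lower for 12 (34.9%), and PBS replicate 2 lay between them for 3. The 5 ligand probe sets gave 1 higher and 2 lower, the 5 receptor probe sets 0 higher and 5 lower, and the 11 binding protein probe sets 5 higher and 5 lower. Against PBS replicate 1 alone, both rhLH arrays were higher for 15 members (39.4% of all) and lower for 4 (47.6%). There, limma called 7 of 21 members, as it did 25.8% of all kept probe sets, whereas against PBS replicate 2 alone it called 0 members, as it did 0% of all, with the lone PBS array taken to vary like the rhLH arrays. The 7 were 1 probe set of IGF1, those of IGFBP2, IGFBP4, IGFBP5 and IGFBP6, and 2 of IGFBP7, all higher with rhLH. Of these 7, IGFBP4 and MmugDNA.9577.1.S1_s_at of IGFBP7 also had both rhLH arrays above PBS replicate 2.

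The partners and the signalling chain of the family were read from 7 lists, each gene by its brightest kept probe set. They held 51 genes with a kept probe set, of which 0 passed over all probe sets (limma). Here and in the cell type marker lists, a listed gene could be missing because it was dim or because no probe set carried its symbol alone. At an unadjusted p under 0.05, 3 of the 51 were found (GRB14, CCN1 and CCN2), against 2.02% of all kept probe sets. Their median difference was −0.0016, with 1 gene above and 10 below both PBS arrays on both rhLH arrays (14.4% and 17.7% of all kept probe sets).

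Receptor adaptors, which link IGF1R and the insulin receptor to the cell interior, were listed together with the phosphatases PTPN1 and PTPN11. Of the 13 genes, 11 had a probe set with their symbol alone and 10 were kept. Of these 10, 0 lay above and 4 below both PBS arrays (14.4% and 17.7% of all kept probe sets). Those below were GRB10, GRB14, SOS1 and PTPN1. The median of the 10 was −0.18, or −0.36 and −0.091 from PBS replicates 1 and 2. GRB14, an adaptor that binds the insulin receptor and inhibits its kinase, read 5576 and 6699 with rhLH, against 15116 and 10541 with PBS. Its difference of −1.04 (SE 0.36, limma adjusted p = 0.919) was made up of −1.30 and −0.78 against PBS replicates 1 and 2. PTPN1, a phosphatase that removes phosphate from these receptors, read 768 and 827 with rhLH, against 1215 and 1139 with PBS, and the groups did not overlap (log2 −0.55, SE 0.32, with −0.60 and −0.51 against PBS replicates 1 and 2).

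Of the distant relatives of the binding proteins, 7 of 8 were kept, with a median of −0.17 (−0.26 and 0.018 from PBS replicates 1 and 2), and HTRA1 among them is also in the protease list. CCN1, a matrix protein with an IGFBP-like domain, read 1039 and 1907 with rhLH, against 4223 and 3157 with PBS, a difference of −1.36 (SE 0.41, limma adjusted p = 0.919). CCN2, its close relative known as connective tissue growth factor, read 3354 and 7021 with rhLH, against 9097 and 12379 with PBS (log2 −1.13, SE 0.46, limma adjusted p = 0.919). Both rhLH arrays lay below both PBS arrays for each, with differences of −1.57 and −1.16 for CCN1 and of −0.90 and −1.35 for CCN2 against PBS replicates 1 and 2. CCN2 moved to −0.59 without rhLH replicate 3 and to −1.66 without rhLH replicate 4. Its 2 further probe sets stood at −1.03 and −2.55 against PBS replicate 1 but at 0.062 and 0.11 against PBS replicate 2. Their pooled differences were −0.49 and −1.22, and the groups overlapped on both.

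In the other lists, PI3K and AKT genes had a median of 0.25, or 0.63 and −0.21 from PBS replicates 1 and 2. Of the 18 listed, 13 had a probe set with their symbol alone and 12 were kept. PIK3CB, a catalytic subunit of PI3-kinase, read 405 and 478 with rhLH, against 727 and 578 with PBS, and PHLPP2, a phosphatase that acts on AKT, read 693 and 747 with rhLH, against 572 and 529 with PBS. Against PBS replicates 1 and 2 they differed by −0.70 and −0.38 (PIK3CB) and by 0.32 and 0.43 (PHLPP2). The mTOR branch had a median of 0.07 (13 listed, 11 with such a probe set, 11 kept), at 0.23 and −0.21 against PBS replicates 1 and 2. There RICTOR, a subunit of mTOR complex 2, read 1213 and 1342 with rhLH, against 3191 and 1499 with PBS (its further probe set also had both rhLH arrays below both PBS arrays), and RPS6KB2, a ribosomal S6 kinase, read 335 and 297 with rhLH, against 419 and 393 with PBS. Against PBS replicates 1 and 2 these differed by −1.31 and −0.23 (RICTOR) and by −0.39 and −0.30 (RPS6KB2). None of these 4 passed (limma adjusted p = 0.919 for each). Of the 8 kept genes for proteases that cut binding proteins or their inhibitors, 0 had groups that did not overlap (32.2% of all kept probe sets). The median of these 8 was 0.09 (0.09 and 0.024 from PBS replicates 1 and 2), and they were all of the 12 listed that had such a probe set. In the list of the insulin receptor family and ligand partners, 4 of 7 genes had a probe set with their symbol alone. Of these, 3 were kept, namely IGFALS, IGFBP1 and GHR, and no insulin receptor family gene was among them. The median of these 3 was −0.35 (−0.56 and −0.13 from PBS replicates 1 and 2). GHR, the growth hormone receptor that drives IGF1 production in liver, read 193 and 244 with rhLH, against 618 and 273 with PBS (−1.44 and −0.31 on the log2 scale). IGFBP1, a binding protein that is not among the members and was chosen after its values were seen, read 4836 and 11026 with rhLH, against 10588 and 5192 with PBS, with 1 high and 1 low array in each group. IGF2BP3, which binds IGF2 mRNA, was the only kept gene of its list of 3 and read 145 and 188 with rhLH, against 265 and 187 with PBS.

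**Figure D4:**
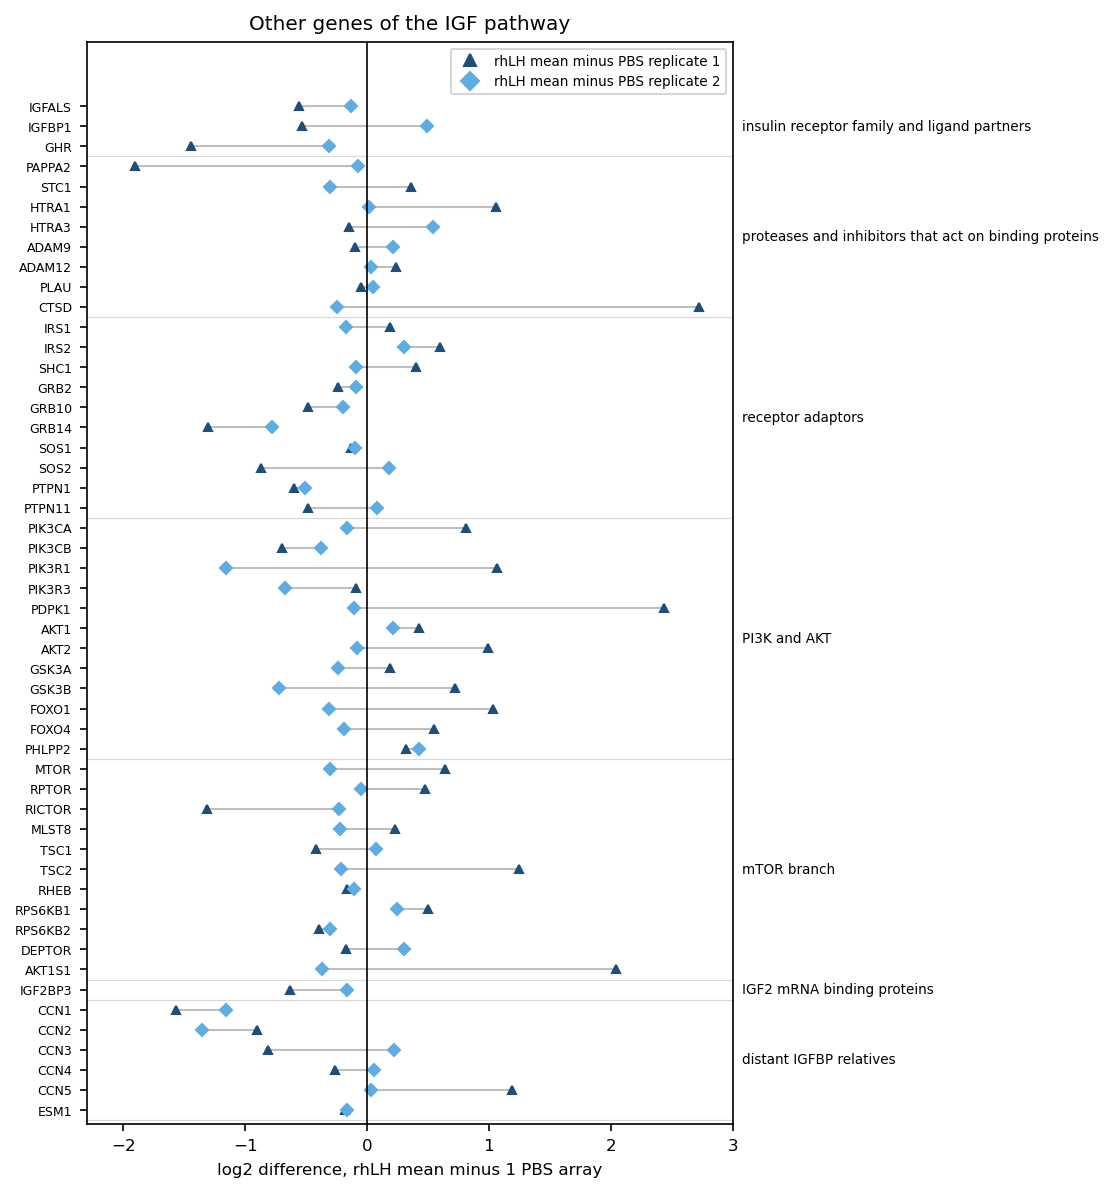
Difference of the rhLH mean from PBS replicate 1 (dark triangles) and from PBS replicate 2 (light diamonds) on the log2(signal + 16) scale for the other genes of the IGF pathway, grouped by list, 1 row per gene. CCN1, CCN2 and GRB14 lie at −0.78 or lower against either PBS array, while for CTSD, PDPK1 and AKT1S1 only the difference from PBS replicate 1 exceeds 2.

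The corpus luteum holds several cell types, and in bulk RNA fewer cells of a type and less RNA per cell cannot be told apart. Signals summed over 8 of 11 granulosa-lutein markers were 142082 to 151966 with rhLH, against 62288 to 140590 with PBS. Their median difference of 0.87 was 1.73 from PBS replicate 1 and 0.28 from PBS replicate 2. Both rhLH arrays lay above both PBS arrays for 5 of the 8 (14.4% of all kept probe sets). HSD17B1, which makes estradiol from estrone, read 273 and 319 with rhLH, against 67.1 and 51.4 with PBS, and CYP19A1, the aromatase, read 12670 and 20847 with rhLH, against 1884 and 7431 with PBS. HSD17B1 differed by 1.91 and 2.21 and CYP19A1 by 3.10 and 1.13 from PBS replicates 1 and 2, and both PBS signals of HSD17B1 lay below the filter level. Sums over 2 of 3 theca-lutein markers were 54866 to 56995 with rhLH, against 25998 to 61253 with PBS. STAR stands in both of these lists and made up most of the theca-lutein sums (52570 and 51660 with rhLH, against 24283 and 54566 with PBS). CYP17A1, the other theca-lutein marker, read 2296 and 5336 with rhLH, against 1715 and 6687 with PBS. Sums over 11 of 12 endothelial markers were 24713 to 28064 with rhLH, against 22671 to 26623 with PBS. Over 8 of 12 macrophage and leukocyte markers they were 18450 to 25371 with rhLH, against 10897 to 36653 with PBS. Of the latter sums, LYZ alone made up 13206 and 12488 with rhLH, against 6121 and 28435 on PBS replicates 1 and 2. Pericyte and smooth muscle markers (6 of 10) summed to 16235 to 20166 with rhLH, against 11557 to 16631 with PBS, and fibroblast markers (9 of 10) to 87048 to 94899 with rhLH, against 46931 to 100988 with PBS. Erythroid markers (2 of 5) summed to 996 to 1235 with rhLH, against 899 to 1123 with PBS. TAGLN, an actin-binding protein of smooth muscle, had the smallest unadjusted p of the listed genes. Its brightest probe set read 6118 and 6561 with rhLH, against 2668 and 2568 with PBS, and differed by at least 2-fold between every rhLH array and every PBS array. The difference was 1.27 (SE 0.30, 95% interval 0.54 to 2.01, limma adjusted p = 0.919), or 1.24 and 1.30 against PBS replicates 1 and 2. On its further probe set, at 3031 and 4065 with rhLH, against 685 and 3857 with PBS, the groups overlapped. ALAS2, the first enzyme of haem synthesis in erythroid cells, read 209 and 310 with rhLH, against 97.7 and 99.4 with PBS (1.25 and 1.23 against PBS replicates 1 and 2). HBB, the only other kept erythroid marker, read 787 and 925 with rhLH, against 1025 and 799 with PBS, and its groups overlapped. KDR, a VEGF receptor of endothelial cells, read 241 and 305 with rhLH, against 34.8 and 234 with PBS (2.50 and 0.20, with PBS replicate 1 below the filter level). PECAM1, an endothelial adhesion molecule, read 4527 and 5043 with rhLH, against 6549 and 5350 with PBS (−0.45 and −0.16), while pooled values of 0.40 and −0.02 came from 2 dimmer PECAM1 probe sets. COL3A1, a fibrillar collagen, read 228 and 316 with rhLH, against 788 and 329 with PBS (−1.50 and −0.28). It did not stand for its list, where 5 fibroblast markers had a positive and 4 a negative pooled difference (median 0.04). Endothelial markers gave 8 positive and 3 negative (median 0.26), and pericyte and smooth muscle markers 4 and 2 (median 0.25).

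PBS replicate 1 had the lower PBS sum in 6 of the 7 lists, the erythroid one excepted, as it had the lower PBS signal for 17 of the 21 IGF family probe sets. No kept marker was at 0 on any array, 0 passed the limma test, and the part of cell composition in the IGF family values was not tested.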

How the data were processed

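RNA from corpora lutea was measured on 4 Affymetrix rhesus macaque arrays. The deposited values are probe set intensities (signals on a linear scale) made by the authors with MAS5, per the submitters' processing notes and the labels. Neither the scaling target nor detection calls are stated in the sources used here. The 2% trimmed mean was 500 on each array, within the 10% tolerance, so no further normalization was applied. Of 52865 probe sets, 99 controls were left out. Those with a mean log2(signal + 16) above the 40th percentile were kept. Gene symbols came from the platform annotation provided (24956 probe sets with 1 symbol, 361 with several, 27449 with none), which can be old. How well the rhesus probes match bonnet monkey transcripts was not examined. No sequences or coordinates were used.

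Groups came from the sample titles. The rhLH arrays were compared with the PBS arrays in limma 3.58.1 (R 4.3.3) by lmFit and trended eBayes, with two-sided p-values adjusted by Benjamini-Hochberg over all kept probe sets and a threshold of 0.05. The script was tested on simulated data beforehand. The labels do not tie arrays to animals, so p-values measure the spread between these arrays, which may be technical, and 2 arrays a group limit the precision. Every member is named. Of each other list, the rule names the 2 genes with the smallest p among those whose groups do not overlap. The members and lists were chosen with earlier results of these data known. Alternatives were quantile normalization, median centring, pseudocounts of 1 and 64, other filters (none, 70th percentile), other variance priors, array weights and leaving out each array.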

Additional observations from a re-analysis of the deposited data

How the results depend on the processing

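With 2 arrays a group, 1 of them unlike the rest, the precision of every value is limited. Leaving out PBS replicate 2 gave 8169 calls over all probe sets, 7 of them IGF family probe sets, and 7 members past the 2-fold rule, where all other alternatives gave 0 of each (ranges over left-out arrays 0 to 8169, 0 to 7 and 0 to 7). The share of all kept probe sets past the 2-fold rule without PBS replicate 2 is not given here. By the nearest measure, the rhLH mean differed from PBS replicate 1 by more than 1 on the log2 scale for 33.3% of members. For all kept probe sets this share was 35.4%, so the members did not stand out from the background. The count of members whose groups do not overlap, 8, ran from 10 to 19 over left-out arrays, where fewer arrays make overlap less likely. It was 18 without PBS replicate 1, where 33.9% of all kept probe sets had both rhLH arrays higher and 34.9% both lower. Without PBS replicate 2 it was 19, beside 39.4% of all kept probe sets higher and 47.6% lower. The family median of 0.22 ran from −0.17 (without PBS replicate 1) to 0.64 (without PBS replicate 2). The filters, variance priors and array weights left the difference of every retained member unchanged, so only the other alternatives could change a sign. Of 21 members, 8 kept their sign under those of the 13 alternatives that retained them, and the filter at the 70th percentile retained 19. Over left-out arrays the others ran from −0.17 to 1.21 (IGF1 MmugDNA.7733.1.S1_at), −0.057 to 0.87 (IGF2), −0.71 to 0.10, −0.91 to 0.032 and −0.79 to 0.027 (IGF1R), −0.49 to 0.73 (IGF2R MmuSTS.629.1.S1_at), −0.27 to 2.10 (IGFBP2), −0.53 to 0.61 (IGFBP3), −0.054 to 5.20 (IGFBP5), −0.78 to 1.87 (IGFBP6), and −0.14 to 1.21 and −0.33 to 0.22 (IGFBP7 MmugDNA.20278.1.S1_at and MmugDNA.32638.1.S1_at). The named marker genes, whose alternatives were chosen after seeing the data, kept their signs wherever the filter retained them, and TAGLN ran from 1.22 to 1.32 over left-out arrays. Quantile normalization turned IGFBP3 to −0.051 and IGFBP7 MmugDNA.10728.1.S1_at to −0.049. Centring the arrays turned IGFBP7 MmugDNA.32638.1.S1_at to 0.17 and moved the pathway median to 0.23, as it moved the median of all kept probe sets, which went to 0.19 with centring, against −0.036 without. Relative to that median the family stood at 0.25 in either case, which centring cannot change, since it shifts every difference by the same amount. Quantile normalization can change it, and there the family stood only 0.10 above the median of all kept probe sets (0.15 against 0.044). Positive differences were then found for 12 members, where the main setting gave 14. The cause of the other changes was not tested. No paired analysis was possible because the groups share no replicate numbers.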
